A study of Mus musculus with 6 samples.

Results

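Secreted Wnt proteins, the receptors that bind them and the proteins that block or tune them were followed as 1 module of 51 genes, out of 57180 gene identifiers in the count table. The genes were chosen by symbol and not by a measured value, though with earlier results of these data known: all 19 Wnt ligands, all 10 Frizzled receptors, the coreceptors Lrp5, Lrp6, Ror1 and Ror2, the 4 R-spondins, the antagonist families Sfrp (4 genes) and Dkk (4 genes) with Wif1, and 5 target or feedback genes (Axin2, Lef1, Tcf7, Nkd1 and Nkd2). All 51 symbols were found. A filter on low counts kept 38 of them for testing, and the other 13 (Dkk1, Dkk4, Fzd10, Rspo1, Rspo4, Sfrp5, Wif1, Wnt1, Wnt3, Wnt3a, Wnt8a, Wnt8b and Wnt9b) had at most 29 reads in any library.

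Wnt proteins are lipid-modified secreted ligands. In the canonical branch a ligand bridges a Frizzled receptor and Lrp5 or Lrp6, which stops the destruction of beta-catenin and lets it act with the DNA-binding factors of the Tcf/Lef family. In the non-canonical branch ligands such as Wnt5a act through Frizzled and Ror receptors on cell shape and polarity. R-spondins keep Frizzled receptors on the cell surface, Sfrp and Wif proteins capture ligands, Dkk1 and its relatives Dkk2 and Dkk4 bind Lrp coreceptors, and Axin2 is a target that feeds back as an inhibitor. In fibroblasts the pathway is known for its part in wound repair and fibrosis, and in skin for signals to the hair follicle.

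The libraries were polyadenylated RNA of mouse fibroblasts from the heart (cardiac), the lung and the tail tip, 1 library for each origin and virus. Cells of each origin received an adenovirus with Cre recombinase (Ad-Cre, labelled as the GATA4 knockout) or with green fluorescent protein (Ad-GFP, the control), were grown in DMEM with serum and were harvested after 48 h. The genotype of all 6 libraries is labelled WT, and no label names a floxed allele, the deleted part of Gata4, the strain, the age or whether cells of several animals were pooled. The 2 libraries of an origin differ in virus and are not replicates. The p-values for the origins therefore rest on how much the virus difference varied between origins. They do not measure a spread between animals, and nothing states that the 2 libraries of an origin came from separate animals.

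Total counts ran from 26170316 to 33779069. Levels are given as CPM (the count divided by the library's total reads in megareads), scaled with TMM factors, and levels of different genes are compared only as CPM per kilobase of merged exon. Gata4 had 149 CPM with Ad-Cre and 147 CPM with Ad-GFP in cardiac cells, a ratio of 1.02 (95% interval 0.978 to 1.06). It had 19.2 CPM with Ad-Cre and 14.7 CPM with Ad-GFP in lung cells, and 2 reads with Ad-Cre and 1 read with Ad-GFP in tail tip cells. Gata4 RNA was thus not lower in any library labelled as the knockout, and reads summed over a gene do not show whether part of it was deleted. All 10 fibroblast markers (such as Col1a1, Pdgfra and Thy1) had reads in all 6 libraries, at 11454 to 33223 CPM in sum. The cardiac pair stood apart: 777 genes had at least 10 reads with Ad-Cre and 0 with Ad-GFP, and 594 genes the reverse, against 13 and 9 genes in the lung pair and 9 and 7 genes in the tail tip pair. Of the 51 Wnt genes, 5 were among the 777 cardiac genes and 0 among the 594. The table has 57180 identifiers, 35114 of them with at least 1 read.

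The level of most of these genes differed by fibroblast origin. In cardiac against lung cells 17 of the 38 tested Wnt genes were higher and 8 lower, where 20.8% and 17.6% of all 18143 tested genes passed in those directions (edgeR quasi-likelihood test, adjusted p under 0.05). In cardiac against tail tip cells 12 were higher and 11 lower, against 15.5% and 18.0% of all genes. In lung against tail tip cells 7 were higher and 24 lower, against 22.3% and 28.2% of all genes. The median log2 fold change of the 38 genes was 1.97 for cardiac over lung, -0.23 for cardiac over tail tip and -1.94 for lung over tail tip, against -0.01, -0.06 and -0.06 over all tested genes. Genes with 0 reads in one origin were 4, 2 and 4 of the 38 in these comparisons, and the medians were the same with those genes set to their bounds.

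By non-overlap, 9 of the 38 genes had both cardiac libraries above all 4 others (13.2% of all tested genes did), 3 had both lung libraries above all 4 others (26.1%) and 15 had both tail tip libraries above all 4 others (28.3%). The cardiac genes were Fzd4, Fzd5, Fzd6, Lrp5, Ror1, Sfrp1, Sfrp4, Nkd1 and Nkd2. The lung genes were Fzd3, Lef1 and Tcf7. The tail tip genes were Wnt2, Wnt2b, Wnt5a, Wnt5b, Wnt6, Wnt10b, Wnt16, Rspo2, Rspo3, Fzd1, Fzd2, Fzd7, Sfrp2, Dkk2 and Dkk3. In lung cells 26 of the 51 genes had at least 10 reads with Ad-Cre and 24 with Ad-GFP, against 38 and 31 in cardiac cells and 34 and 34 in tail tip cells. The lung libraries also had the lowest total counts (26170316 and 29535869). Over the whole table, 27267 and 25234 genes had a read with Ad-Cre and Ad-GFP in lung cells. These counts were 22665 and 23120 in cardiac cells and 26547 and 26392 in tail tip cells. The share of all genes with at least 10 reads was not counted.

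**Figure D1:**
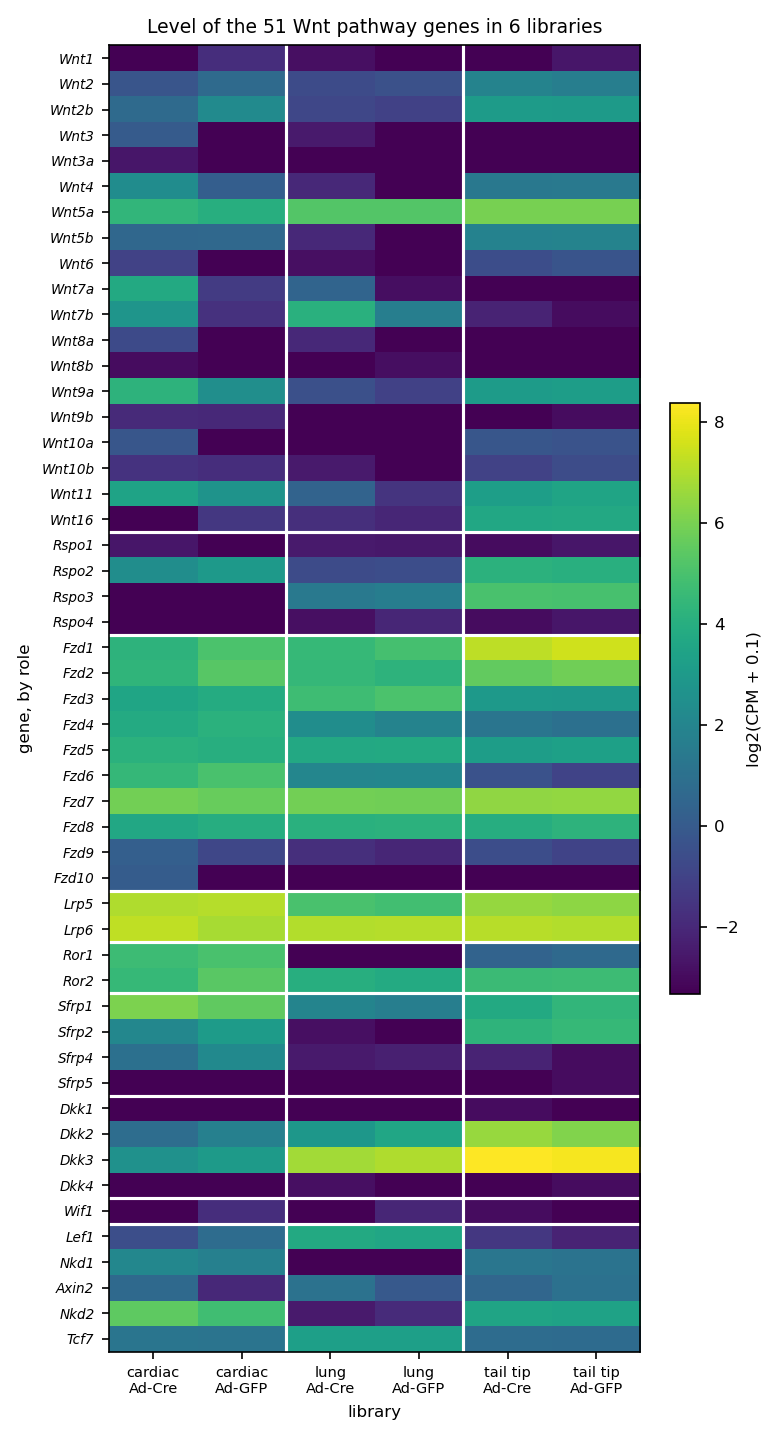
Level of the 51 Wnt pathway genes (rows, grouped by role) in the 6 libraries (columns), as log2(CPM + 0.1) on the colour scale. Tail tip columns are bright for Dkk3, Dkk2, Fzd1 and Rspo3, cardiac columns for Sfrp1, Nkd2 and Ror1, and lung columns for Lef1 and Tcf7; the darkest cells hold 0 reads.

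The ligand mix differed by origin. Summed over the 19 ligands, the level per kilobase was 20.1 CPM per kb with Ad-Cre and 8.17 CPM per kb with Ad-GFP in cardiac cells, 9.79 and 6.07 CPM per kb with Ad-Cre and Ad-GFP in lung cells, and 22.1 and 22.7 CPM per kb with Ad-Cre and Ad-GFP in tail tip cells. Wnt5a led in 5 of the 6 libraries, with 48.8% of the sum with Ad-Cre and 79.6% with Ad-GFP in lung cells and 36.6% with Ad-Cre and 35.5% with Ad-GFP in tail tip cells. In the cardiac library labelled Ad-Cre the first ligands were Wnt9a (27.9%) and Wnt7a (21.1%), ahead of Wnt5a (13.2%), while Wnt5a (25.1%), Wnt9a (19.6%) and Wnt11 (18.8%) led with Ad-GFP. In tail tip cells Wnt16, Wnt9a and Wnt11 followed Wnt5a, each at 10.1% to 13.3% in both libraries.

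Wnt5a, the main non-canonical ligand, had 20.7 CPM with Ad-Cre and 16.0 CPM with Ad-GFP in cardiac cells, 37.3 and 37.8 CPM with Ad-Cre and Ad-GFP in lung cells, and 63.3 and 63.1 CPM with Ad-Cre and Ad-GFP in tail tip cells. The 3 origins did not overlap, and the order was tail tip, lung, cardiac. The log2 fold change was -1.04 ± 0.17 (SE) for cardiac over lung (edgeR adjusted p = 0.00358), -1.79 ± 0.17 for cardiac over tail tip (adjusted p = 0.000349) and -0.75 ± 0.17 for lung over tail tip (adjusted p = 0.00864).

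Wnt16, a ligand known from bone and joint tissue, was read mostly in tail tip cells. It had 0 reads with Ad-Cre and 9 reads with Ad-GFP in cardiac cells, 5 and 4 reads with Ad-Cre and Ad-GFP in lung cells, and 423 and 418 reads with Ad-Cre and Ad-GFP in tail tip cells. The log2 fold change was -6.55 ± 0.78 for cardiac over tail tip (edgeR adjusted p = 0.000886) and -6.28 ± 0.77 for lung over tail tip (adjusted p = 0.000524). Without the cardiac Ad-GFP library the first value was -11.63, since the remaining cardiac library had no read.

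Wnt2b and Wnt2, closely related canonical ligands, were also highest in tail tip cells. Wnt2b had 1.54 CPM with Ad-Cre and 4.76 CPM with Ad-GFP in cardiac cells, 0.468 and 0.378 CPM with Ad-Cre and Ad-GFP in lung cells, and 8.52 and 8.24 CPM with Ad-Cre and Ad-GFP in tail tip cells. The lung libraries lay below all others, with a log2 fold change of -4.32 ± 0.58 for lung over tail tip (edgeR adjusted p = 0.000784). For cardiac over lung it was 2.79 ± 0.58 (adjusted p = 0.00894), and 1.77 without the cardiac Ad-GFP library. Wnt2 had 23 and 51 reads with Ad-Cre and Ad-GFP in cardiac cells, 14 and 19 reads with Ad-Cre and Ad-GFP in lung cells, and 121 and 100 reads with Ad-Cre and Ad-GFP in tail tip cells. The tail tip libraries were the highest, and the log2 fold change for lung over tail tip was -2.53 ± 0.54 (adjusted p = 0.00683, and 0.137 without the tail tip Ad-Cre library).

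Wnt9a, Wnt11 and Wnt4 were each higher in every cardiac and tail tip library than in the lung libraries, where they had at most 31 reads. Wnt9a, known from joint formation, had 18.7 CPM with Ad-Cre and 5.32 CPM with Ad-GFP in cardiac cells, 0.624 and 0.378 CPM with Ad-Cre and Ad-GFP in lung cells, and 8.49 and 9.12 CPM with Ad-Cre and Ad-GFP in tail tip cells. Its log2 fold change was 4.45 ± 0.55 for cardiac over lung (edgeR adjusted p = 0.00103) and -4.24 ± 0.55 for lung over tail tip (adjusted p = 0.000671), while the cardiac pair lay on both sides of the tail tip pair. Wnt11, a ligand of cardiac development and cell movement, had 10.8 CPM with Ad-Cre and 6.36 CPM with Ad-GFP in cardiac cells, 1.21 and 0.240 CPM with Ad-Cre and Ad-GFP in lung cells, and 9.21 and 11.3 CPM with Ad-Cre and Ad-GFP in tail tip cells. It was higher in cardiac than in lung cells by 3.64 ± 0.56 on the log2 scale (adjusted p = 0.00259). Wnt4, which acts in kidney and gonad development, had 154 and 33 reads with Ad-Cre and Ad-GFP in cardiac cells, 4 and 0 reads with Ad-Cre and Ad-GFP in lung cells, and 81 reads in each tail tip library. For cardiac over lung its log2 fold change was 5.16 ± 1.00 (adjusted p = 0.00689), and 8.72 without the lung Ad-Cre library, which held all of its lung reads. For lung over tail tip it was -5.34 ± 1.02 (adjusted p = 0.00400), and -8.86 without that library.

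Of the R-spondins, which raise the response to Wnt ligands, Rspo2 and Rspo3 differed by origin. Rspo3 had 0 reads in both cardiac libraries, 66 and 87 reads with Ad-Cre and Ad-GFP in lung cells, and 1064 and 996 reads with Ad-Cre and Ad-GFP in tail tip cells. With 3 counts over both cardiac libraries taken as the floor, it was at least 58.7-fold lower in cardiac than in lung cells and at least 667-fold lower than in tail tip cells. Lung cells were below tail tip cells by a log2 fold change of -3.51 ± 0.25 (edgeR adjusted p = 0.000101). Rspo2 took the opposite place in the first 2 origins, with 161 and 249 reads with Ad-Cre and Ad-GFP in cardiac cells, 14 and 17 reads with Ad-Cre and Ad-GFP in lung cells, and 609 and 529 reads with Ad-Cre and Ad-GFP in tail tip cells. Its log2 fold change was 3.50 ± 0.33 for cardiac over lung (adjusted p = 0.000296) and -4.95 ± 0.33 for lung over tail tip (adjusted p = 3.34e-05). Per kilobase, Rspo3 made up 74.1% and 75.4% of the summed R-spondin level with Ad-Cre and Ad-GFP in tail tip cells, and Rspo2 made up 96.8% and 100% with Ad-Cre and Ad-GFP in cardiac cells. Rspo1 and Rspo4 had at most 4 reads in any library.

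Among the 10 Frizzled receptors, Fzd7 was well read in every library, and Fzd1 had the largest share in tail tip cells. Fzd7 had 49.4 to 58.6 CPM in the cardiac libraries, 57.4 to 58.6 CPM in the lung libraries and 87.0 to 87.8 CPM in the tail tip libraries. Its log2 fold change was -0.70 ± 0.15 for cardiac over tail tip (edgeR adjusted p = 0.0117) and -0.59 ± 0.15 for lung over tail tip (adjusted p = 0.0141). Fzd2 was also highest in tail tip cells by non-overlap. It passed for lung over tail tip (-1.33 ± 0.29, edgeR adjusted p = 0.00724) but not for cardiac over tail tip (-0.81 ± 0.28, adjusted p = 0.0647). Fzd1 had 18.8 CPM with Ad-Cre and 33.6 CPM with Ad-GFP in cardiac cells, 23.0 and 30.0 CPM with Ad-Cre and Ad-GFP in lung cells, and 149 and 183 CPM with Ad-Cre and Ad-GFP in tail tip cells. Cardiac and lung libraries overlapped for Fzd1, and both lay far under the tail tip libraries: the log2 fold change was -2.71 ± 0.19 for cardiac over tail tip (edgeR adjusted p = 8.58e-05) and -2.66 ± 0.19 for lung over tail tip (adjusted p = 4.20e-05). Per kilobase, Fzd1 was 48.9% and 51.9% of the summed Frizzled level with Ad-Cre and Ad-GFP in tail tip cells.

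Fzd6 and Fzd4 were highest in cardiac cells, but they did not lead the Frizzled level there. Fzd5 was highest there by non-overlap only, since it did not pass for cardiac over lung (log2 fold change 0.31 ± 0.20, edgeR adjusted p = 0.259). Per kilobase, Fzd7 was 36.1% and 24.0% of the summed Frizzled level with Ad-Cre and Ad-GFP in cardiac cells. Fzd2 was 15.1% and 24.4% of it, Fzd6 12.7% and 14.7%, and Fzd4 5.84% and 5.73%. Fzd6, which acts in planar polarity, had 21.9 CPM with Ad-Cre and 32.2 CPM with Ad-GFP in cardiac cells, 4.02 and 4.12 CPM with Ad-Cre and Ad-GFP in lung cells, and 0.665 and 0.409 CPM with Ad-Cre and Ad-GFP in tail tip cells. The 3 origins were fully separated, with log2 fold changes of 2.72 ± 0.30 for cardiac over lung (edgeR adjusted p = 0.000622), 5.62 ± 0.36 for cardiac over tail tip (adjusted p = 6.49e-05) and 2.90 ± 0.35 for lung over tail tip (adjusted p = 0.000517). Fzd4, also a receptor for Norrin in blood vessels, had 14.0 CPM with Ad-Cre and 17.5 CPM with Ad-GFP in cardiac cells and 1.89 to 5.19 CPM in the other 4 libraries. Its log2 fold change was 1.85 ± 0.29 for cardiac over lung (adjusted p = 0.00302) and 2.94 ± 0.31 for cardiac over tail tip (adjusted p = 0.000499). Fzd3, a receptor of axon guidance, was highest in lung cells, at 26.4 and 33.1 CPM with Ad-Cre and Ad-GFP, with 11.8 and 14.3 CPM with Ad-Cre and Ad-GFP in cardiac cells and 7.61 and 7.33 CPM with Ad-Cre and Ad-GFP in tail tip cells. The 3 origins did not overlap for this gene, and its log2 fold change for lung over tail tip was 1.98 ± 0.20 (adjusted p = 0.000227). Fzd8 did not pass the test in any origin comparison, with log2 fold changes of -0.34 ± 0.19, -0.27 ± 0.19 and 0.07 ± 0.19.

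Of the 2 Lrp coreceptors, Lrp6 was level across origins and Lrp5 was not. Lrp6 had 115 to 151 CPM in all 6 libraries, and its log2 fold change between any pair of origins was 0.00 or -0.01 (SE 0.16). Lrp5, known for its role in bone mass, had 127 CPM with Ad-Cre and 133 CPM with Ad-GFP in cardiac cells, 31.7 and 28.4 CPM with Ad-Cre and Ad-GFP in lung cells, and 90.8 and 82.4 CPM with Ad-Cre and Ad-GFP in tail tip cells. The lung pair lay under all others, by a log2 fold change of 2.12 ± 0.15 for cardiac over lung (edgeR adjusted p = 9.93e-05) and -1.53 ± 0.15 for lung over tail tip (adjusted p = 0.000189).

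Ror1, a receptor tyrosine kinase for Wnt5a, had 795 and 1060 reads with Ad-Cre and Ad-GFP in cardiac cells, 0 reads in both lung libraries, and 41 and 47 reads with Ad-Cre and Ad-GFP in tail tip cells. It was at least 537-fold higher in cardiac than in lung cells, with 3 counts over both lung libraries as the floor, and at least 24.8-fold lower in lung than in tail tip cells. For cardiac over tail tip its log2 fold change was 4.42 ± 0.27 (edgeR adjusted p = 0.000109). Its relative Ror2 was present everywhere, at 22.7 and 40.8 CPM with Ad-Cre and Ad-GFP in cardiac cells, 15.7 and 13.9 CPM with Ad-Cre and Ad-GFP in lung cells, and 24.6 and 25.8 CPM with Ad-Cre and Ad-GFP in tail tip cells. The lung cells, in which Wnt5a was the leading ligand, thus had Ror2 and no Ror1 read.

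**Figure D2:**
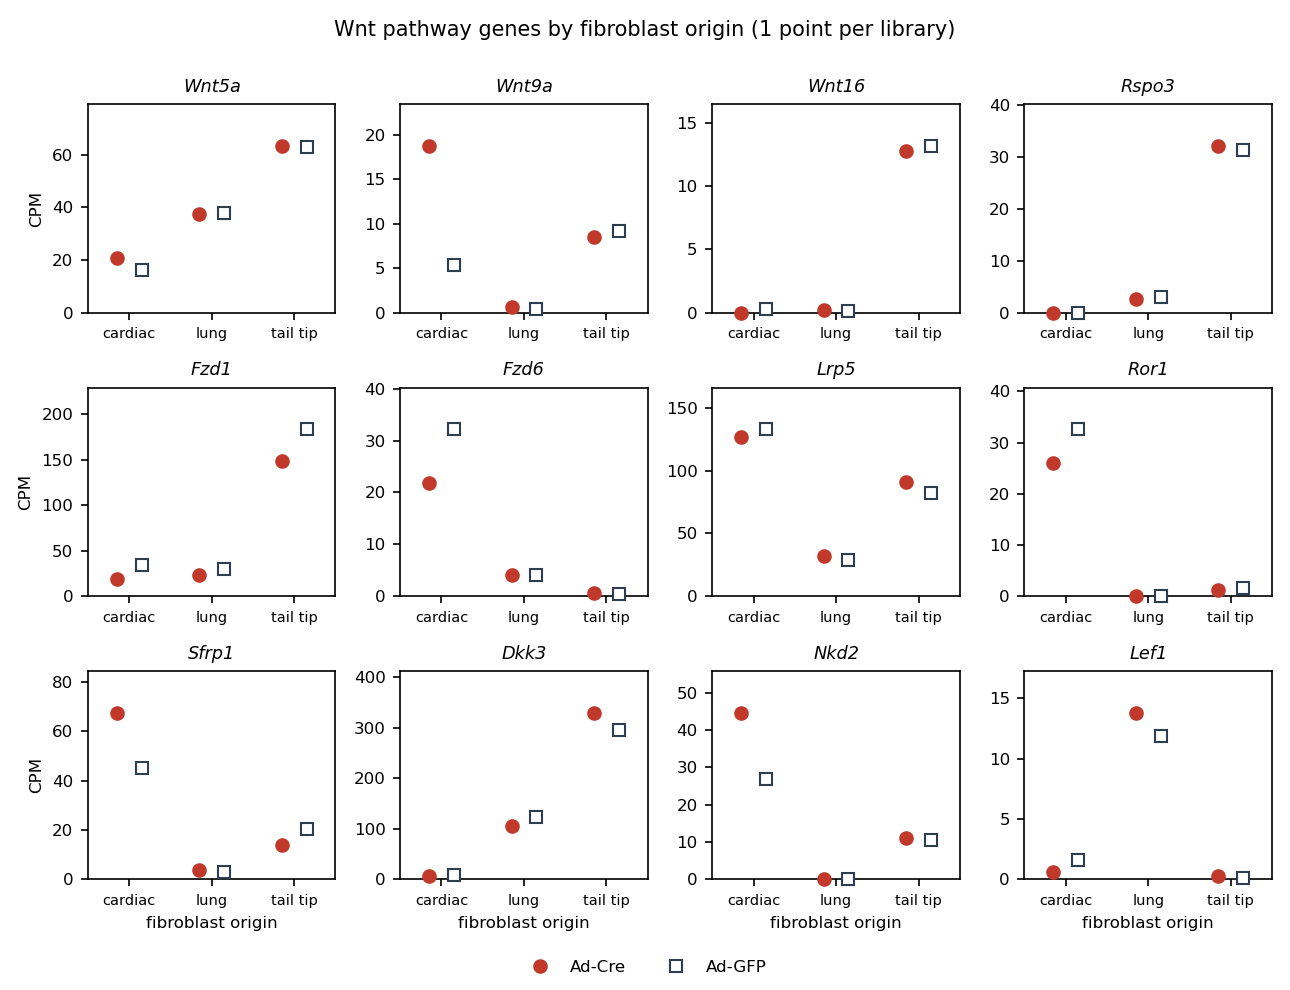
CPM of 12 Wnt pathway genes by fibroblast origin (linear axes from 0), 1 point per library; filled circles are Ad-Cre and open squares Ad-GFP. Wnt16, Rspo3, Fzd1 and Dkk3 are high in the tail tip libraries, Fzd6, Ror1, Sfrp1 and Nkd2 in the cardiac libraries, and Lef1 in the lung libraries.

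Among the Sfrp, Dkk and Wif1 genes of the module, the leading secreted antagonist differed by origin. Sfrp1 was 77.0% of their summed level per kilobase with Ad-Cre and 55.3% with Ad-GFP in cardiac cells. Dkk3 was 91.7% and 90.1% of it with Ad-Cre and Ad-GFP in lung cells, and 72.1% and 71.8% in tail tip cells. This sum leaves out Frzb, an Sfrp relative that was not a member of the module. In cardiac cells Frzb had 11.6 CPM per kb with Ad-Cre and 23.2 CPM per kb with Ad-GFP. Sfrp1 had 15.4 and 10.3 CPM per kb there, and was thus below Frzb in the cardiac Ad-GFP library. Dkk3 is the divergent Dkk family member, and its place in Wnt signalling is debated. It had 5.93 CPM with Ad-Cre and 8.05 CPM with Ad-GFP in cardiac cells, 106 and 124 CPM with Ad-Cre and Ad-GFP in lung cells, and 329 and 295 CPM with Ad-Cre and Ad-GFP in tail tip cells. All 3 origins were separated, with log2 fold changes of -4.05 ± 0.20 for cardiac over lung (edgeR adjusted p = 2.54e-05), -5.49 ± 0.22 for cardiac over tail tip (adjusted p = 2.04e-05) and -1.45 ± 0.18 for lung over tail tip (adjusted p = 0.000540).

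Dkk2, an Lrp-binding modulator, followed the same order. It had 1.70 CPM with Ad-Cre and 3.29 CPM with Ad-GFP in cardiac cells, 7.10 and 12.0 CPM with Ad-Cre and Ad-GFP in lung cells, and 95.1 and 71.1 CPM with Ad-Cre and Ad-GFP in tail tip cells. The log2 fold change of Dkk2 was -5.12 ± 0.38 for cardiac over tail tip (edgeR adjusted p = 0.000104) and -3.18 ± 0.34 for lung over tail tip (adjusted p = 0.000264). Dkk1 and Dkk4 had at most 1 read in any library.

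Sfrp1, Sfrp2 and Sfrp4 passed the test as higher in cardiac than in lung cells. Sfrp1 had 67.4 CPM with Ad-Cre and 45.1 CPM with Ad-GFP in cardiac cells, 3.82 and 3.09 CPM with Ad-Cre and Ad-GFP in lung cells, and 13.8 and 20.6 CPM with Ad-Cre and Ad-GFP in tail tip cells. Cardiac cells exceeded lung cells by 4.02 ± 0.32 on the log2 scale (edgeR adjusted p = 0.000146) and tail tip cells by 1.69 ± 0.28 (adjusted p = 0.00422). Sfrp2 was highest in tail tip cells, with 126 and 272 reads with Ad-Cre and Ad-GFP in cardiac cells, 1 and 0 reads with Ad-Cre and Ad-GFP in lung cells, and 647 and 725 reads with Ad-Cre and Ad-GFP in tail tip cells. For cardiac over tail tip its log2 fold change was -1.83 ± 0.32 (adjusted p = 0.00510). Sfrp4 was a cardiac gene at a low level, with 58 and 151 reads with Ad-Cre and Ad-GFP in cardiac cells and at most 4 reads in the other libraries. Wif1 and Sfrp5 had at most 6 reads and 1 read in any library.

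Of the 5 feedback and target genes, 2 were higher and 2 lower in cardiac than in lung cells, where 20.8% and 17.6% of all tested genes were. Nkd2, an inhibitor that binds Dishevelled, had 1363 and 877 reads with Ad-Cre and Ad-GFP in cardiac cells, 2 and 5 reads with Ad-Cre and Ad-GFP in lung cells, and 369 and 334 reads with Ad-Cre and Ad-GFP in tail tip cells. The log2 fold change of Nkd2 was 8.05 ± 0.41 for cardiac over lung (edgeR adjusted p = 2.78e-05) and -6.36 ± 0.42 for lung over tail tip (adjusted p = 3.06e-05). Its relative Nkd1 had 125 and 108 reads with Ad-Cre and Ad-GFP in cardiac cells, 0 reads in both lung libraries, and 76 and 67 reads with Ad-Cre and Ad-GFP in tail tip cells. It was at least 67.5-fold higher in cardiac than in lung cells and at least 40.2-fold lower in lung than in tail tip cells.

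Lef1 and Tcf7, DNA-binding partners of beta-catenin, went the other way and were highest in lung cells. Lef1 had 18 and 53 reads with Ad-Cre and Ad-GFP in cardiac cells, 354 and 346 reads with Ad-Cre and Ad-GFP in lung cells, and 9 and 4 reads with Ad-Cre and Ad-GFP in tail tip cells. Its log2 fold change was -3.57 ± 0.53 for cardiac over lung (edgeR adjusted p = 0.00221) and 5.97 ± 0.63 for lung over tail tip (adjusted p = 0.000252). Tcf7 had 2.19 and 2.15 CPM with Ad-Cre and Ad-GFP in cardiac cells, 9.71 and 9.51 CPM with Ad-Cre and Ad-GFP in lung cells, and 1.63 and 1.57 CPM with Ad-Cre and Ad-GFP in tail tip cells. The 2 libraries of an origin nearly coincided for Tcf7, and its log2 fold change was -2.14 ± 0.31 for cardiac over lung (adjusted p = 0.00198) and 2.58 ± 0.32 for lung over tail tip (adjusted p = 0.000512). Axin2, the most general transcriptional target of the canonical branch, had 46 and 5 reads with Ad-Cre and Ad-GFP in cardiac cells, 51 and 25 reads with Ad-Cre and Ad-GFP in lung cells, and 45 and 62 reads with Ad-Cre and Ad-GFP in tail tip cells. It passed no origin comparison (log2 fold change -1.51 ± 0.90 for cardiac over tail tip and -0.51 ± 0.84 for lung over tail tip), although without the cardiac Ad-Cre library it was lower in cardiac than in lung cells (-2.98, adjusted p = 0.000576) and than in tail tip cells (-3.25, adjusted p = 7.07e-05).

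Other cell types' markers also differed by origin. The 11 macrophage markers summed to 632 CPM with Ad-Cre and 1051 CPM with Ad-GFP in cardiac cells, 15.2 and 19.6 CPM with Ad-Cre and Ad-GFP in lung cells, and 4571 and 5399 CPM with Ad-Cre and Ad-GFP in tail tip cells. The 9 mesothelial markers summed to 137 CPM with Ad-Cre and 63.6 CPM with Ad-GFP in cardiac cells, 197 and 156 CPM with Ad-Cre and Ad-GFP in lung cells, and 9.37 and 7.42 CPM with Ad-Cre and Ad-GFP in tail tip cells. In the lung libraries the mesothelial reads were nearly all Msln, with Upk3b, Lrrn4 and Gpm6a at 0 in both. Given as Ad-Cre and Ad-GFP, 7 mural markers summed to 246 and 267 CPM in cardiac cells. Their sums were 22.4 and 24.0 CPM in lung cells and 184 and 176 CPM in tail tip cells. In the same order, 8 cardiomyocyte markers summed to 57.1 and 77.8, 41.4 and 32.0, and 2.90 and 3.33 CPM. For 8 endothelial markers the sums were 21.7 and 17.0, 9.98 and 7.69, and 29.8 and 31.4 CPM. The part of these markers in the origin differences was not tested. In bulk RNA, fewer cells of a type and less RNA per cell cannot be told apart.

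The rest of the pathway was counted in lists of genes chosen by role. The shares of all tested genes to set beside these counts are 20.8% higher and 17.6% lower for cardiac over lung, 15.5% and 18.0% for cardiac over tail tip, and 22.3% and 28.2% for lung over tail tip, and nothing particular to a list is read from its counts. Of 28 intracellular components, all tested, 9 were higher and 4 lower in cardiac than in lung cells, 1 and 6 in cardiac against tail tip cells, and 6 and 12 in lung against tail tip cells. Ctnnb1, which encodes beta-catenin, had 468 to 538 CPM in all 6 libraries and passed no comparison (log2 fold changes 0.12 ± 0.14, 0.18 ± 0.14 and 0.05 ± 0.14). Of 25 tested membrane and secreted components out of 30, 9 were higher and 3 lower in cardiac than in lung cells, 5 and 11 in cardiac against tail tip cells, and 4 and 13 in lung against tail tip cells.

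A receptor and an antagonist of this list are given as examples, chosen after their values were seen. Lgr4, an R-spondin receptor, had 20.3 CPM in each cardiac library, 14.1 and 20.3 CPM with Ad-Cre and Ad-GFP in lung cells, and 254 and 250 CPM with Ad-Cre and Ad-GFP in tail tip cells, where Rspo3 and Rspo2 were also highest (log2 fold change for lung over tail tip -3.88 ± 0.20, edgeR adjusted p = 1.21e-05). Frzb, an Sfrp relative, had 37.4 and 74.9 CPM with Ad-Cre and Ad-GFP in cardiac cells, 0.273 and 0.309 CPM with Ad-Cre and Ad-GFP in lung cells, and 19.0 and 18.4 CPM with Ad-Cre and Ad-GFP in tail tip cells. It was highest in cardiac cells, as Sfrp1 was, with a log2 fold change of 7.54 ± 0.39 for cardiac over lung (adjusted p = 2.93e-05). Of 16 tested target genes out of 18, 3 were higher and 2 lower in cardiac than in lung cells, against 20.8% and 17.6% of all tested genes. The counts were 6 and 5 in cardiac against tail tip cells, beside 15.5% and 18.0% of all tested genes, and 5 and 5 in lung against tail tip cells, beside 22.3% and 28.2%.

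**Figure D3:**
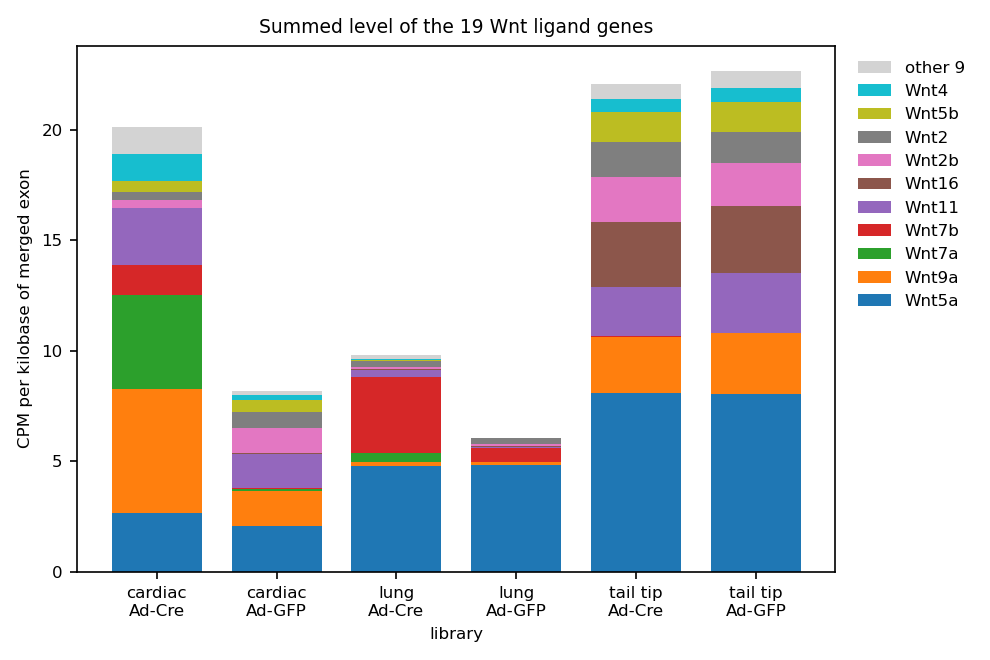
Summed level of the 19 Wnt ligand genes in each library, in CPM per kilobase of merged exon, stacked by gene (bars start at 0). Wnt5a is the largest part of both lung bars, the tail tip bars are alike and mixed, and the cardiac bar of the Ad-Cre library reaches 20.1 against 8.17 in its Ad-GFP library, with Wnt9a and Wnt7a as its largest parts.

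The libraries labelled Ad-Cre were then compared with those labelled Ad-GFP. As a change common to the 3 origins, 0 of 38 Wnt genes and 0.00% of all tested genes passed (edgeR, lowest adjusted p = 0.9996), while 3 of the 38 and 367 of all genes had an unadjusted p under 0.05. DESeq2 called 3 genes in all, and 2 of them were the Wnt7a and Wnt7b pair. Within an origin each group is 1 library, so the ratios below have no replicate check, and their 95% intervals cover counting error only. At least 2-fold differences were counted with a prior count of 2.

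In cardiac cells 8 of 38 Wnt genes were at least 2-fold higher with Ad-Cre and 6 at least 2-fold lower, where 11.3% and 9.07% of all tested genes were. The higher genes were Wnt4, Wnt6, Wnt7a, Wnt7b, Wnt9a, Wnt10a, Fzd9 and Axin2, and the lower ones were Wnt2b, Wnt16, Fzd2, Sfrp2, Sfrp4 and Lef1. In lung cells 7 were at least 2-fold higher with Ad-Cre and 0 lower, against 4.87% and 2.82% of all genes. These were Wnt4, Wnt5b, Wnt7a, Wnt7b, Wnt10b, Wnt11 and Axin2, but Wnt4, Wnt5b and Wnt10b had at most 4 reads with Ad-Cre and 0 with Ad-GFP. In tail tip cells 0 were higher and 0 lower, against 1.53% and 1.58% of all genes. Ligands are 13 of the 38 tested genes, and they made up 6 of the 8 higher and 2 of the 6 lower genes in cardiac cells and 6 of the 7 higher genes in lung cells, 3 of which are the ligands with at most 4 reads.

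**Figure D4:**
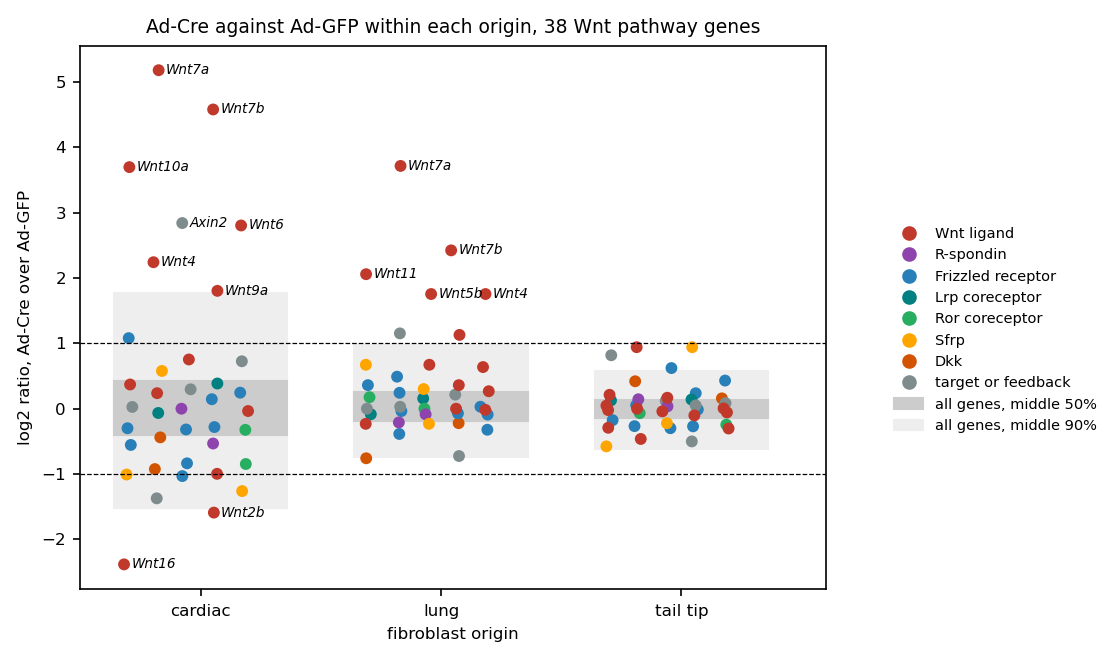
Log2 ratio of Ad-Cre over Ad-GFP (prior count 2) for the 38 tested Wnt genes in each origin, coloured by role; grey boxes span the middle 50% and 90% of all 18143 tested genes, dashed lines mark 2-fold, and genes beyond 1.5 on the log2 scale are named. Wnt7a and Wnt7b lie highest in cardiac cells and Wnt7a, Wnt7b and Wnt11 in lung cells, and no point passes 2-fold in tail tip cells.

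Wnt7a and Wnt7b, canonical ligands of limb, lung and vascular development, were far higher with Ad-Cre in both origins that expressed them. Wnt7a had 411 reads with Ad-Cre and 10 reads with Ad-GFP in cardiac cells, 32 and 1 reads with Ad-Cre and Ad-GFP in lung cells, and 0 reads in both tail tip libraries. The cardiac ratio was 43.8 (95% interval 23.6 to 92.0), and the lung ratio, which rests on 1 read with Ad-GFP, was 36.3 (6.07 to 1480). Wnt7b had 203 reads with Ad-Cre and 7 reads with Ad-GFP in cardiac cells, 437 and 91 reads with Ad-Cre and Ad-GFP in lung cells, and 4 and 1 reads with Ad-Cre and Ad-GFP in tail tip cells. Its ratio was 30.9 (14.7 to 77.8) in cardiac cells and 5.45 (4.34 to 6.91) in lung cells. The Ad-Cre library was thus the higher one for both genes in each of these origins, with counting intervals above 1.

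Origin calls of this pair depended on single libraries. The log2 fold change of Wnt7a for cardiac over lung was 3.35 ± 0.55 (edgeR adjusted p = 0.00524), and the adjusted p was 0.103 without the lung Ad-Cre library and 0.110 without the cardiac Ad-Cre library. That of Wnt7b was -2.23 ± 0.57 (adjusted p = 0.0197), with -3.49 without the lung Ad-Cre library, -1.51 (adjusted p = 0.0563) without the lung Ad-GFP library, -3.85 without the cardiac Ad-Cre library and -1.38 without the cardiac Ad-GFP library. Against tail tip cells, with 0 reads of Wnt7a in both libraries, Wnt7a was at least 144-fold higher in cardiac cells and at least 13.0-fold higher in lung cells. These bounds rest on the Ad-Cre libraries: without the cardiac Ad-Cre library the cardiac bound was 6.65-fold, and without the lung Ad-Cre library 1 lung read was left, which gives no bound. The lung call for Wnt7a was lost without the tail tip Ad-Cre library (adjusted p = 0.409). Wnt7b was higher in lung than in tail tip cells by 7.28 ± 0.84 on the log2 scale (adjusted p = 0.000405).

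Wnt9a and Wnt4 were higher with Ad-Cre in cardiac cells, and both differed little in tail tip cells. The ratio of Wnt9a was 3.52 (2.97 to 4.20) in cardiac cells, 1.65 (0.720 to 3.94) in lung cells and 0.931 (0.787 to 1.10) in tail tip cells. Wnt4 had a ratio of 4.97 (3.40 to 7.48) in cardiac cells and 0.960 (0.697 to 1.32) in tail tip cells. For Wnt11 the cardiac ratio was 1.69 (1.42 to 2.02) and the lung ratio 5.03 (2.17 to 13.5), from 31 reads with Ad-Cre and 7 with Ad-GFP in lung cells. Fzd10, Wnt3, Wnt10a, Wnt8a and Wnt6 had 29, 28, 24, 16 and 12 reads with Ad-Cre in cardiac cells and 0 with Ad-GFP. Against 3 counts they were at least 10.3-fold, 9.94-fold, 8.52-fold, 5.68-fold and 4.26-fold higher. They are 5 of the 51 Wnt genes, beside 777 of all 57180 identifiers (35114 with at least 1 read) with that pattern in this pair. They were named after their values were seen.

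Axin2 was at least 2-fold higher with Ad-Cre in both cardiac and lung cells. Its ratio was 9.80 (3.91 to 31.6) in cardiac cells and 2.32 (1.41 to 3.90) in lung cells, against 0.697 (0.464 to 1.04) in tail tip cells. Lef1 had a cardiac ratio of 0.362 (0.199 to 0.628) and a lung ratio of 1.16 (0.999 to 1.35), and Tcf7 ratios were 1.02 in cardiac, 1.02 in lung and 1.04 in tail tip cells. Of the wider target list, Apcdd1, a membrane inhibitor, had a ratio of 2.89 (2.57 to 3.26) in cardiac cells and 1.61 (1.47 to 1.77) in lung cells. It had 1046 and 385 reads with Ad-Cre and Ad-GFP in cardiac cells and 1070 and 754 reads with Ad-Cre and Ad-GFP in lung cells. Smaller ratios above 1 in both origins were those of Ccnd1, a cell cycle gene, at 1.58 in cardiac and 1.28 in lung cells, and of Sox9, a transcription factor, at 1.54 in cardiac and 1.37 in lung cells. Tnfrsf19 had 95 and 11 reads with Ad-Cre and Ad-GFP in cardiac cells. These examples were chosen after their values were seen. Over that list of 16 tested genes, 4 were at least 2-fold higher and 2 lower with Ad-Cre in cardiac cells, where 11.3% and 9.07% of all tested genes were. In lung cells 1 was higher and 0 lower, against 4.87% and 2.82%, and that gene, Lgr5, had 3 reads with Ad-Cre and 0 with Ad-GFP. The 2 lower genes in cardiac cells were Myc and Lgr5. Myc had 1895 and 4461 reads with Ad-Cre and Ad-GFP there, a ratio of 0.452 (0.429 to 0.478), and Lgr5 had 3 and 14 reads. In cardiac cells 11 of the 16 targets had a log2 ratio above 0 and 5 below, so the list did not move in 1 direction there. In lung cells 14 were above 0 and 2 below, and in tail tip cells 7 and 9. Of all 18143 tested genes, 8882 were above 0 and 8948 below in cardiac cells. In lung cells 9592 of all tested genes were above and 8135 below. A shared change of the targets was not tested.

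Genes lower with Ad-Cre in cardiac cells included ligands, a receptor and antagonists. Fzd2, a receptor for Wnt5a among others, had 606 reads with Ad-Cre and 1321 reads with Ad-GFP, a ratio of 0.489 (0.443 to 0.538), against 560 and 537 reads with Ad-Cre and Ad-GFP in lung cells and 1548 and 1789 reads with Ad-Cre and Ad-GFP in tail tip cells. The ratio of Wnt2b was 0.323 (0.228 to 0.450) and that of Wnt2 was 0.480 (0.280 to 0.800). Sfrp2 had a ratio of 0.493 (0.396 to 0.612) and Sfrp4 of 0.409 (0.297 to 0.557), while Sfrp1 was 1.49 (1.40 to 1.60). In tail tip cells the ratio of Fzd2 was 0.831 (0.776 to 0.890) and that of Wnt2b 1.03 (0.871 to 1.23).

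The summed epithelial and mesothelial markers also differed in the cardiac pair. The 13 epithelial markers summed to 146 CPM with Ad-Cre and 14.8 CPM with Ad-GFP in cardiac cells, where 12 had a read with Ad-Cre and 10 with Ad-GFP, and Cldn7 was at 0 with Ad-Cre. Most of the cardiac Ad-Cre sum came from Dsp (57.6 CPM), Krt18 (35.2 CPM), Krt7 (25.1 CPM), Krt19 (16.3 CPM) and Krt8 (7.56 CPM). Every other epithelial marker had at most 1.54 CPM in that library (Epcam). Krt19 is on both the epithelial and the mesothelial list. In lung cells the 13 epithelial markers summed to 9.24 CPM with Ad-Cre and 2.33 CPM with Ad-GFP, with Krt5, Krt14 and Dsp at 0 in both, and in tail tip cells to 5.65 and 5.13 CPM with Ad-Cre and Ad-GFP. The mesothelial sum given above was also higher with Ad-Cre in cardiac cells, with 8 of 9 markers read in each library and Muc16 at 0 in both. Of the 8 tested mesothelial markers, 6 were higher and 2 lower with Ad-Cre there. The macrophage sum given above and the fibroblast sum (24180.5 CPM with Ad-Cre and 33223 CPM with Ad-GFP) were lower with Ad-Cre there. Of the 10 fibroblast markers 8 were lower, and Pdgfra (ratio 1.52) and Pdgfrb (1.58) were higher. The part of these markers in the Wnt differences was not tested.

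**Figure D5:**
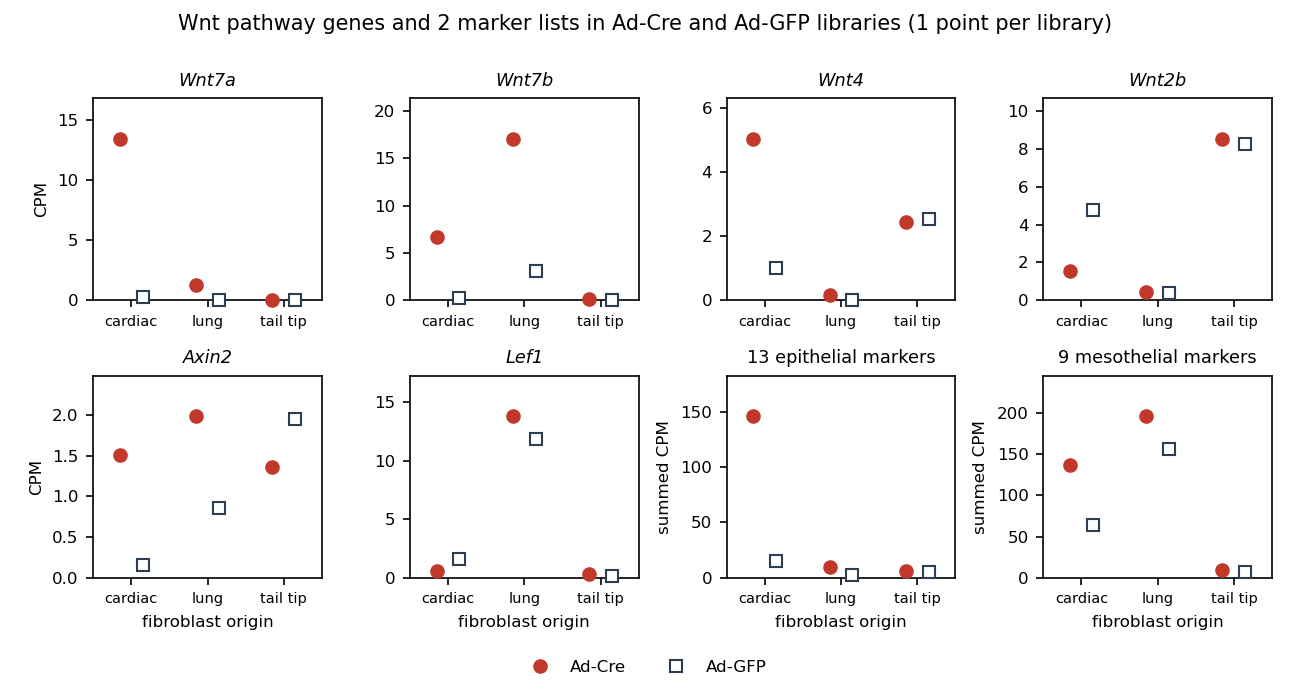
CPM of 6 Wnt pathway genes and summed CPM of 13 epithelial and 9 mesothelial markers by fibroblast origin (linear axes from 0), 1 point per library; filled circles are Ad-Cre and open squares Ad-GFP. Wnt7a, Wnt7b, Wnt4, Axin2 and the epithelial sum are higher with Ad-Cre in cardiac cells, Wnt7b also in lung cells, and the tail tip points of each gene lie close together except for Axin2.

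Promoters of 5 members that were at least 2-fold higher with Ad-Cre in an origin are shown as examples, chosen after the values and motifs were seen: those of Wnt7a, Wnt9a, Wnt4 and Axin2, and the Wnt11 window that holds a TCF/LEF word. Not shown are the windows of Wnt6 (6 GC boxes), Fzd9 (1) and Wnt10b (0), the 3 windows of Wnt5b, 1 of which holds a TCF/LEF word, and the other Wnt11 window (1 GC box and no TCF/LEF word). The windows are from RefSeq (GRCm38.p6), 250 bases before to 50 bases after the start, written 5′ to 3′ on the gene's strand, and 35 of the 51 genes had 1 or more windows (42 in all). Capitals mark a GC box (GGGCGG, bound by Sp and Klf factors) or a TCF/LEF word (CTTTGAT or CTTTGAA), searched on both strands with overlapping matches of a motif counted once. In the Wnt11 window the TCF/LEF word is the ATCAAAG that directly follows a GC box.
Wnt7a (chr6:91411304-91411603, minus strand): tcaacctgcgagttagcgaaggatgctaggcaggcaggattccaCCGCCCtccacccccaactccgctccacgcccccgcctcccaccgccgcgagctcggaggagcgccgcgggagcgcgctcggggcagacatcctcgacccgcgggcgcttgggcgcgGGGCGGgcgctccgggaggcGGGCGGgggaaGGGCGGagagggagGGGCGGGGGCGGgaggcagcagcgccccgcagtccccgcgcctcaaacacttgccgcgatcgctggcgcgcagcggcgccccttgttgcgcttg
Wnt9a (chr11:59306680-59306979, plus strand): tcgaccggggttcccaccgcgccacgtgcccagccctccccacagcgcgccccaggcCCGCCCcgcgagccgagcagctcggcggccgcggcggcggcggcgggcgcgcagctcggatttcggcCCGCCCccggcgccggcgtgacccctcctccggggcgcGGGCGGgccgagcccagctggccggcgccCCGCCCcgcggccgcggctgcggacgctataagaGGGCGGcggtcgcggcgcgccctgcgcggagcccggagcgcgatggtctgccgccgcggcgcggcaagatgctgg
Wnt4 (chr4:137277385-137277684, plus strand): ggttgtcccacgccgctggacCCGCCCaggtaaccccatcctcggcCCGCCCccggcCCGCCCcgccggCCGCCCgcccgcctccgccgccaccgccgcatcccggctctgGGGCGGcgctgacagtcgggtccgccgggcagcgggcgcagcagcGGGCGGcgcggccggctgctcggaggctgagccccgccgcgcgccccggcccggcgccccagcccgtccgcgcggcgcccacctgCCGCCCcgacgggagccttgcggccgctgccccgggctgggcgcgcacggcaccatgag
Wnt11 (chr7:98834862-98835161, plus strand): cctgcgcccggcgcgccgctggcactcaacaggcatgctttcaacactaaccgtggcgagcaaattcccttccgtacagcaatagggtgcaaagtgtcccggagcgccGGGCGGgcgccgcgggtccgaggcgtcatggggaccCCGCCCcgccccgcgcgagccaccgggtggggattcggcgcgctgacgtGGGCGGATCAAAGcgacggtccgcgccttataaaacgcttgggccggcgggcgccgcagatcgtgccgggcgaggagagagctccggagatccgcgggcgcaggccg
Axin2 (chr11:108920099-108920398, plus strand): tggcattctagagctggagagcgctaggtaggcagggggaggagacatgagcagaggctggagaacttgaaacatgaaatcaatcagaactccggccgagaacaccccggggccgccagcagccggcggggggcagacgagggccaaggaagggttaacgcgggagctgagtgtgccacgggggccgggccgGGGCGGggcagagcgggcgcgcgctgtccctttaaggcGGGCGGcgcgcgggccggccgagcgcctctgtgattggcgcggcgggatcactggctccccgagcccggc

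These 5 windows hold 6 (Wnt7a), 5 (Wnt9a), 7 (Wnt4), 3 (Wnt11) and 2 (Axin2) GC boxes. A GC box was in 31 of the 42 member windows (73.8%) and in 35.7% of all 32851 windows of the same length, and member windows had a median of 67.0% G and C against 52.7% in all windows. A TCF/LEF word was in 3 member windows (of Dkk1, Wnt11 and Wnt5b) and in 8.65% of all windows. The GATA words searched, AGATAA and TGATAA on both strands, were in 5 member windows and in 18.6% of all windows, and in none of the 5 windows shown. A match is a description of these letters, not a bound site.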

How the data were processed

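The authors deposited 1 table of raw counts, whole numbers of reads for each Ensembl identifier in each library, before any scaling. STAR 2.0.7 and mm39 are named in the submitters' processing notes; no counting tool, annotation or strand setting is stated, so overlapping antisense genes cannot be told apart. All 6 columns were used, matched to libraries by the column names in the labels. Symbols and merged exon lengths came from GENCODE on GRCm38, with a symbol for 51884 identifiers and none for 5296, so no gene coordinates are given for the counts.

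Counts were analysed in R 4.3.3 with edgeR 4.0.16. The filterByExpr function (minimum count 10) left 18143 genes. TMM factors were 0.964 to 1.03. Robust quasi-likelihood F-tests, two-sided, came from a single fit with origin and virus as additive terms to all 6 libraries (2 residual degrees of freedom, median prior 5.12, common dispersion 0.0455), with Benjamini-Hochberg adjustment over all tested genes and a threshold of 0.05. The scripts were tested on simulated data. Within an origin there is no test. Ratios are of CPM with exact conditional binomial 95% intervals. Intervals and floors cover counting error only, and a count of 0 allows 3 counts, or 0.0888 to 0.115 CPM.

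Values were printed for members with at least 10 CPM in a library and a called origin difference of at least 2 on the log2 scale, for those with at least 50 reads and a ratio of at least 2 or at most 0.5 within an origin, and for the 5 feedback genes. Other members named, such as Wnt5a, Fzd3, Fzd7, Fzd8, Lrp6 and Ror2, were chosen after their values were seen. The members and lists were chosen with earlier results of these data known. Alternatives were DESeq2 1.42.0, its size factors, no filter, origin only, other prior counts, a minimum of 50 reads and each library left out.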

Additional observations from a re-analysis of the deposited data

How the results depend on the processing

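Counts of Wnt genes past the threshold between origins stayed within 1.5 times under DESeq2, its size factors, no filter, a model of origin only and each library left out: 23 to 31 for cardiac over lung (25 as reported), 16 to 28 for cardiac over tail tip (23) and 26 to 33 for lung over tail tip (31). For Ad-Cre over Ad-GFP, where 0 passed, DESeq2 called 2, no filter 2, and leaving out a library 1 to 2 (Wnt7a, Wnt7b or both). Without the cardiac pair, an alternative chosen after seeing the data, 1 was called (Wnt7b). The cause was not tested. With at least 50 reads in a library, 2 of the 7 genes of lung cells and 9 of the 14 of cardiac cells were counted, fewer by construction, since fewer genes were tested. With a prior count of 0.5, 3 genes of tail tip cells passed 2-fold (Lef1, Sfrp4 and Wnt7b), against 0. Among 101 single-gene results, 936 alternatives gave 884 that stayed on the same side of the threshold or, for ratios within an origin, inside the counting interval. A further 27 came to pass, 25 were lost and 0 reversed. Between fits, a reversal was counted only where at least 1 of the 2 fits passed. Changes of sign between fits that did not pass were counted as unchanged. An example is Axin2 for lung over tail tip, at -0.51 and, without the tail tip Ad-GFP library, 1.03. The virus comparison is itself paired by origin in the fit. With 1 of the 2 libraries at 0 reads left out, the floor covers a single library and the bounds were lower by construction: at the least 28.4 (lung) and 323 (tail tip) for Rspo3 over cardiac cells, 251 (cardiac) and 11.6 (tail tip) for Ror1 over lung cells, 31.6 (cardiac) and 18.8 (tail tip) for Nkd1 over lung cells, and 70.7 (cardiac) and 6.38 (lung) for Wnt7a over tail tip cells. Depth limits the 13 untested genes and the lung ratios of genes with under 50 reads, and 1 library per group limits all ratios between viruses.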
